A study of Caenorhabditis elegans with 36 samples.

Results

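The str genes of the nematode C. elegans are a family of chemoreceptor genes. They were taken as every gene whose symbol is str followed by a number, which gave 193 gene IDs of the 46926 genes in each count table. The 193 IDs carry 190 symbols, because str-257, str-258 and str-267 each stand on a pair of IDs. The 8 groups of poly(A) RNA-seq libraries from whole animals were used. A further 33 loci that RefSeq names as str pseudogenes lie outside the rule and are described separately.

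The str genes encode receptors that span the membrane several times and couple to G proteins, and most of those studied are made in a few chemosensory neurons of the head or tail. Such receptors are carried to the sensory cilia with the help of odr-4 and odr-8, and signal through G protein alpha subunits (the gpa genes) to cyclic nucleotide-gated channels (tax-2 and tax-4) or TRPV channels (osm-9 and ocr-2). Members of the family are known as markers of single neuron types: str-1 of AWB, str-2 of 1 of the paired AWC neurons, and str-3 of ASI. The diacetyl receptor odr-10 is a relative by sequence, but its symbol puts it outside the rule.

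The study compared animals with altered xnp-1, the worm counterpart of ATRX, a chromatin remodeller, and animals labelled gsox-1 with the wild-type strain N2. Embryos labelled xnp1 and N2 (3 libraries each) came from hypochlorite-lysed adults grown at 20 °C, and L1 larvae labelled xnp1 and N2 (3 libraries each) were embryos of the same kind left in M9 buffer for about 11 h, where first-stage larvae hatch without food. L4 larvae, the last larval stage, were labelled xnp-1;gsox-1, xnp-1, gsox-1 and N2 (3 libraries each) and grown at 25 °C. The labels give xnp1 as a genotype for embryos and L1 larvae and name no allele, while the series text speaks of a knockdown at those stages and of mutants at L4. The L4 libraries were sequenced at a different centre from the rest, so an L4 value is never tested here against an earlier stage. Stage and temperature also cannot be told apart between L4 and the earlier stages.

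Embryo and L1 totals ran from 29896459 to 41520291 fragments, and L4 totals from 39004451 to 45391494 reads. xnp-1 RNA averaged 131.5 ± 7.72 CPM (counts scaled to a common library size) in xnp1 embryos and 401.1 ± 28.02 in N2 embryos, and 170.4 ± 6.62 in xnp1 L1 larvae and 249.1 ± 33.3 in N2 L1 larvae (SD, n = 3 each). At L4 it averaged 29.3 ± 7.64 CPM in xnp-1;gsox-1 larvae, 46.0 ± 5.73 in xnp-1 larvae, 92.2 ± 4.92 in gsox-1 larvae and 75.5 ± 13.3 in N2 larvae. gsox-1 RNA was not lower in the larvae labelled gsox-1 (78.5 ± 3.55 CPM) than in N2 larvae (56.9 ± 12.7), while it averaged 70.5 ± 24.7 CPM in xnp-1;gsox-1 larvae and 162.6 ± 14.9 in xnp-1 larvae. The 3 xnp-1 L4 libraries stood apart from the other 9 on a first principal component that held 62% of the variance.

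Most str genes lie on chromosome V, with 157 of 193 there, 27 on IV, 5 on X, 2 on III, 1 on II and 1 on I (coordinates of the deposited tables). For 122 of them another str gene lies within 10 kb. The median summed exon length was 1049 bases, with a range of 600 to 2122. A gene was called detected in a group when each of its 3 libraries held at least 1 count, and detected at a stage when this held in at least 1 group.

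By this rule 74 of the 193 str genes were detected in embryos (38.3%), 139 in L1 larvae (72.0%) and 58 in L4 larvae (30.1%). In embryos 67 were detected in xnp1 animals and 58 in N2, with 51 in both. In L1 larvae 129 were detected in xnp1 animals and 125 in N2, with 115 in both. At L4 the number was 30 in xnp-1;gsox-1 larvae, 38 in xnp-1 larvae, 27 in gsox-1 larvae and 27 in N2 larvae, and 13 genes were detected in all 4 groups. In whole animals, fewer cells of a type and less RNA per cell cannot be told apart.

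The stages overlapped in a nested way. Of the 193 genes, 51 were detected in L1 larvae alone, 41 at all 3 stages, 32 in embryos and L1 larvae, and 15 in L1 and L4 larvae. Only str-68 was detected in embryos alone, and str-244 and str-247 at L4 alone, all 3 on few counts. str-68 had 21, 7 and 2 fragments in xnp1 embryos, against 1, 2 and 1 in N2 embryos. The remaining 51 genes were detected at no stage, and 7 had no count in any of the 24 libraries. Detection at this depth depends on the minimum: with at least 5 counts in each library the numbers were 32 in embryos, 79 in L1 larvae and 25 at L4, and the order with L1 first held under each minimum tried.

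**Figure D1:**
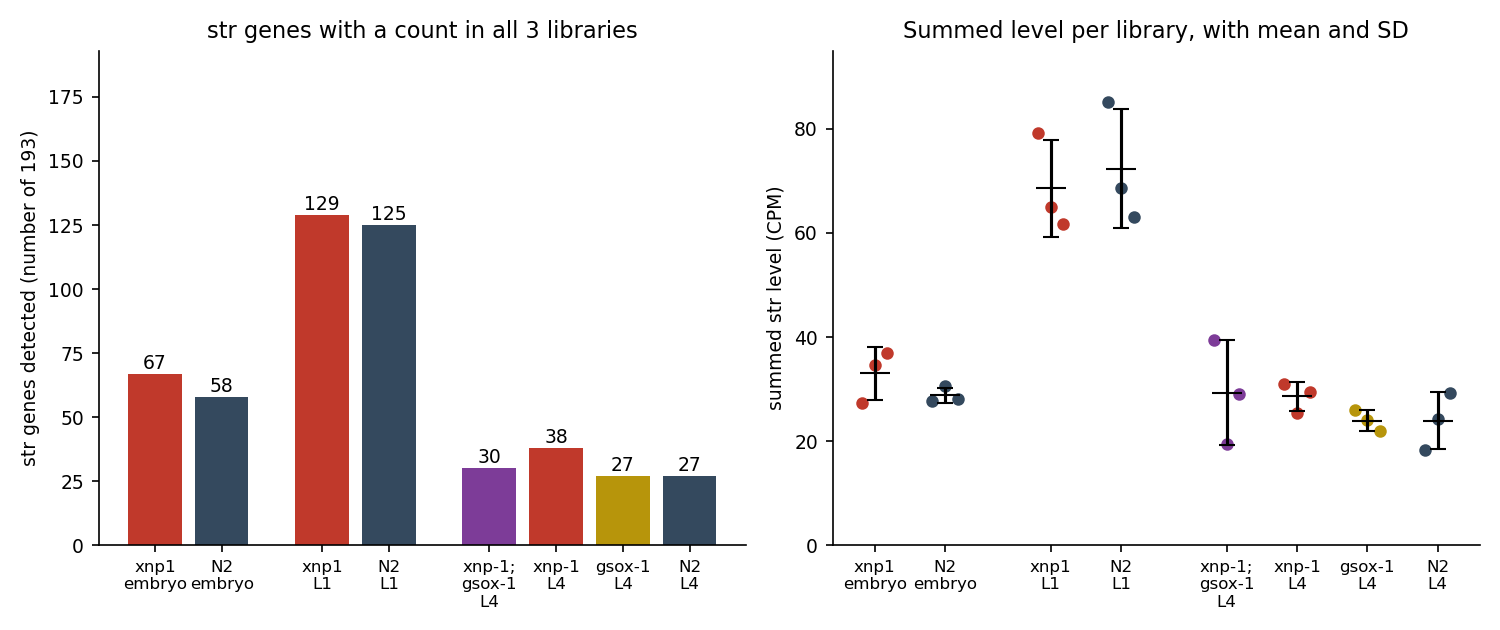
Bars show the number of the 193 str genes with at least 1 count in all 3 libraries of a group. Points show each library's summed str level in CPM, with the mean and SD (n = 3). L1 groups hold 129 (xnp1) and 125 (N2) detected genes, and all other groups hold 67 or fewer.

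Detection was only slightly lower among clustered genes. Of the 122 genes with another str gene within 10 kb, 36.1% were detected in embryos, 68.9% in L1 larvae and 29.5% at L4, and of the 71 without one the shares were 42.3%, 77.5% and 31%. On chromosome IV 15, 24 and 13 of 27 genes were detected in embryos, L1 and L4 larvae, and on chromosome V 54, 108 and 39 of 157. Within chromosome V the first 5 Mb held 57 genes, of which 14, 30 and 11 were detected in embryos, L1 and L4 larvae, while of the 31 genes from 5 to 10 Mb 13, 26 and 13 were. The 57 include the 7 genes with no count in any library. Detected genes had slightly longer exons, with a median of 1062 bases in L1 larvae against 1030.5 for those not detected there, and a longer gene has more chance of a count. The other chemoreceptor gene families, with 1117 genes, showed the same order of stages, with 46.64% detected in embryos, 76.45% in L1 larvae and 34.65% at L4.

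Summed over the family, str RNA was a very small share of the poly(A) RNA at every stage. The sum was 33 ± 5.10 CPM in xnp1 embryos and 28.8 ± 1.48 in N2 embryos, and 68.6 ± 9.34 in xnp1 L1 larvae and 72.3 ± 11.5 in N2 L1 larvae. In L1 larvae the lowest library (61.7 CPM) was well above the highest embryo library (37.0 CPM). At L4 the sum was 29.4 ± 10.0 CPM in xnp-1;gsox-1 larvae, 28.6 ± 2.82 in xnp-1 larvae, 23.97 ± 2.00 in gsox-1 larvae and 23.95 ± 5.45 in N2 larvae, and the groups overlapped. These sums are a description, with no test.

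A few genes held a large share of each sum. The 5 highest str genes of a library held 47.6 to 54.1% of its str CPM in xnp1 embryos and 50.1 to 55.4% in N2 embryos, 35.95 to 40.19% in xnp1 L1 larvae and 38.55 to 43.76% in N2 L1 larvae. At L4 they held 63.9 to 70.5% in xnp-1;gsox-1 larvae, 67.0 to 69.3% in xnp-1 larvae, 57.5 to 65.5% in gsox-1 larvae and 50.6 to 65.7% in N2 larvae. A library had a count for 89 to 102 str genes in embryos, 147 to 153 in L1 larvae and 51 to 80 at L4. L1 RNA was thus spread over the most str genes, and L1 libraries also held the most genes of any kind. Over all genes, a library had a count for 19682 to 20366 in embryos, 23134 to 23828 in L1 larvae and 19158 to 20683 at L4. Of the str genes with a count, 5 to 7 reached 1 CPM in an embryo library, 7 to 17 in an L1 library and 1 to 7 in an L4 library.

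The leading gene changed with the stage. Per exon length, in CPM per kb, str-173 was highest in embryos at 4.83 ± 1.70 (SD, n = 6), ahead of str-148 at 2.51 ± 0.266 and str-81 at 1.5 ± 0.185. str-31 followed at 1.09 ± 0.314, and the next 6 (str-225, str-185, str-55, str-7, str-144 and str-171) lay between 0.559 and 0.856. These ranks pool both genotypes, and that of str-225 came from the xnp1 libraries, with 1.47 ± 0.178 CPM per kb in xnp1 embryos and 0.237 ± 0.0855 in N2 embryos (SD, n = 3 each). The neighbours below str-81 did not differ beyond their spread. In L1 larvae str-176 led at 7.69 ± 4.01, followed by str-204 at 3.76 ± 0.711, str-173 at 3.05 ± 1.20, str-31 at 2.36 ± 0.408 and str-143 at 1.92 ± 0.436. str-176 ranged from 3.24 to 14.7 across the 6 L1 libraries, so its lead over str-204 was not larger than its own spread.

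At L4 str-176 again led, at 6.16 ± 3.22 CPM per kb (SD, n = 12), with libraries from 1.22 to 10.3. It was followed by str-31 at 1.60 ± 1.11, str-180 at 1.5 ± 0.705 and str-138 at 1.18 ± 0.947, whose ranges over the libraries overlapped. These ranks and SDs pool all L4 genotypes. The SDs of str-31 and str-138 thus also hold their lower level in xnp-1 larvae, given below. str-173 and str-148, which led in embryos and remained among the 10 highest in L1 larvae, were not among the 10 highest at L4. str-81 had 3 reads in all 12 L4 libraries, all in 1 xnp-1;gsox-1 library. Only str-31 and str-7 stood among the 10 highest in embryos and again at L4.

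**Figure D2:**
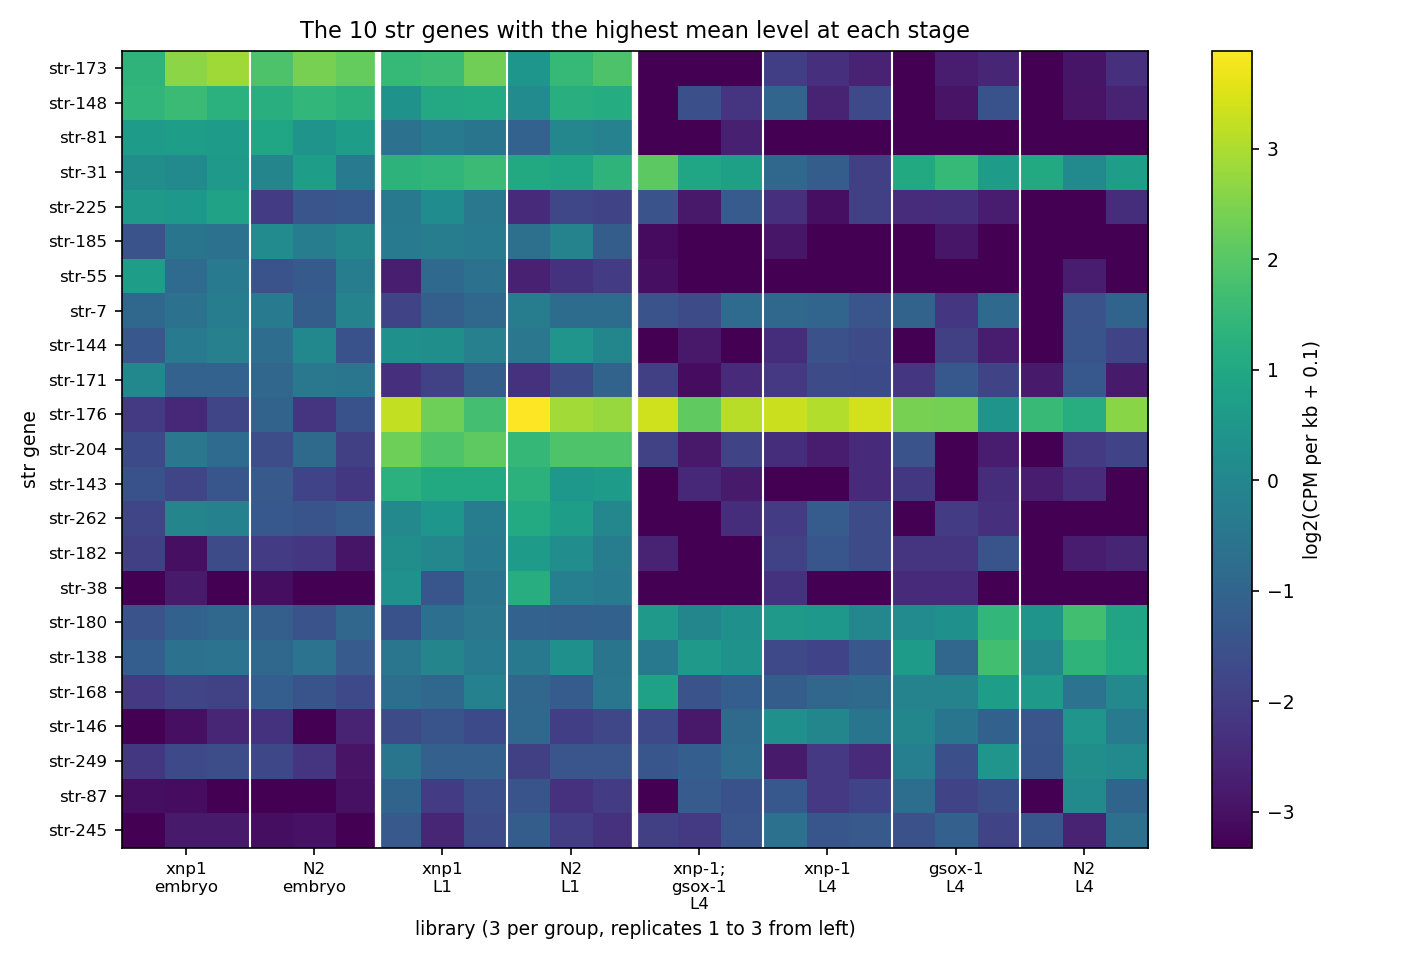
Rows are the 23 str genes among the 10 highest at any stage, columns the 24 libraries, and colour the log2 of CPM per kb plus 0.1. Brighter is higher: the row of str-176 is dark in embryos and bright in L1 and L4 larvae, while str-173, str-148 and str-81 are brighter in embryos than at L4.

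The classical marker genes were near the limit of detection. str-1, the AWB receptor (chromosome IV, 7173789 to 7175008), had 0, 0 and 0 fragments in xnp1 embryos against 7, 1 and 0 in N2 embryos, and 25, 14 and 17 in xnp1 L1 larvae against 8, 5 and 11 in N2 L1 larvae. It was detected in both L1 groups and in neither embryo group. At L4 it had 18, 2 and 4 reads in xnp-1;gsox-1 larvae, 4, 0 and 6 in xnp-1 larvae, 4, 6 and 8 in gsox-1 larvae and 10, 6 and 6 in N2 larvae. str-2, the AWC receptor, had no fragment in any embryo library, 1, 0 and 1 in xnp1 L1 larvae and 0, 3 and 2 in N2 L1 larvae. str-3, the ASI receptor, had 5, 14 and 1 fragments in xnp1 L1 larvae and 14, 4 and 10 in N2 L1 larvae, and no read at L4. str-2 and str-3 did not pass the filter on low counts and were not tested.

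In L1 larvae against embryos, the str genes that changed were mostly higher in L1. Of the 65 str genes that passed the filter, 35 were higher and 2 lower in N2 (edgeR quasi-likelihood test, threshold 0.05 on the p adjusted by Benjamini-Hochberg over the 17687 genes tested), where 34.3% of all genes were higher and 25.2% lower. In xnp1 animals 40 were higher and 3 lower, where 35.5% of all genes were higher and 27.6% lower. The median log2 change of the 65 genes was 1.82 in N2 and 1.94 in xnp1 animals, against 0.10 and 0.11 over all genes. Many of these genes passed the filter only through their L1 counts and so had to differ, which is why these counts describe the 65 and not the family of 193. The 2 comparisons share no library but share the filter and the estimate of the spread. Of the tested str genes, 32 were higher in both, and the share of all genes higher in both was not counted.

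str-176 showed the largest change among genes with more than 3 embryo counts. It had 564, 298 and 236 fragments in xnp1 L1 larvae against 8, 5 and 12 in xnp1 embryos, and 825, 438 and 475 in N2 L1 larvae against 27, 6 and 12 in N2 embryos. Replicate 1 was the highest of both L1 groups, and L1 and embryo libraries did not overlap. The log2 change was 5.42 in xnp1 animals (SE 0.57, edgeR adjusted p = 1.5e-05) and 5.20 in N2 (SE 0.55, edgeR adjusted p = 1.7e-05). The intestine and muscle lists were also highest in replicate 1 of both L1 groups, and their part in the level of str-176 was not tested.

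str-204 and str-143 had the next smallest p-values in both genotypes. str-204 (chromosome V, 7159691 to 7161016) had 195, 146 and 199 fragments in xnp1 L1 larvae against 8, 27 and 20 in xnp1 embryos, and 100, 141 and 167 in N2 L1 larvae against 10, 16 and 5 in N2 embryos. Its log2 change was 3.25 in xnp1 animals (SE 0.40, edgeR adjusted p = 4.4e-05) and 3.55 in N2 (SE 0.42, edgeR adjusted p = 4.3e-05). str-143 had 95, 82 and 97 fragments in xnp1 L1 larvae against 10, 8 and 12 in xnp1 embryos, and 89, 53 and 68 in N2 L1 larvae against 14, 6 and 4 in N2 embryos. No L1 library of either gene overlapped with an embryo library. The log2 change of str-143 was 3.13 in xnp1 animals (SE 0.37, edgeR adjusted p = 3.4e-05) and 3.03 in N2 (SE 0.38, edgeR adjusted p = 6.2e-05). str-97 had a change of similar size on fewer fragments, with 48, 27 and 25 in xnp1 L1 larvae against 3, 1 and 5 in xnp1 embryos and a log2 change of 3.39 in xnp1 animals (SE 0.62, edgeR adjusted p = 0.00069) and 3.59 in N2 (SE 0.64, edgeR adjusted p = 0.00077). str-31 changed less, by 1.19 in xnp1 animals (SE 0.30, edgeR adjusted p = 0.0047) and 1.02 in N2 (SE 0.30, edgeR adjusted p = 0.012).

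A second set of genes had almost no embryo counts. In N2, 10 of the 35 genes that were higher in L1 had 3 or fewer fragments over the 3 embryo libraries, and in xnp1 animals 15 of 40 did. For these, the ratio of normalized counts is given with its exact 95% counting interval. str-38 had 148 fragments in N2 L1 larvae against 1 in N2 embryos, a ratio of 135 (24 to 5348), and 90 in xnp1 L1 larvae against 2 in xnp1 embryos, a ratio of 43.4 (11.7 to 364). str-252 had 106 against 2 in N2, a ratio of 48.2 (13 to 403), and 115 against 2 in xnp1 animals, a ratio of 55.5 (15 to 464). str-260 had 59 fragments in N2 L1 larvae against 1 in N2 embryos, a ratio of 53.6 (9.26 to 2153). These genes were named because they were called higher, and they passed the filter only through their L1 counts. Intervals above 1 follow from that choice, and they are too wide to rank the genes.

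str-44, str-250 and str-109 belonged to the same set. In xnp1 animals str-109 had 51, 33 and 25 fragments in L1 larvae against 1, 0 and 0 in embryos, a ratio of 105 (18.5 to 4194). In N2 it had 25, 12 and 11 against 4, 6 and 0, a log2 change of 2.13 (SE 0.75, edgeR adjusted p = 0.027). str-1 had 56 fragments in xnp1 L1 larvae and none in xnp1 embryos, at least 18-fold higher if the embryo group is set to 3 counts in all, and its change in N2 missed the threshold (log2 1.46, edgeR adjusted p = 0.13). str-214 had no fragment in either embryo group and was at least 9.33-fold higher in xnp1 L1 larvae and at least 7.27-fold higher in N2 L1 larvae. Among the genes called higher, the L1 and embryo libraries did not overlap for 39 of 40 in xnp1 animals and 34 of 35 in N2. The exceptions were str-150 and str-37. A called gene is likely to separate in this way, and the share over all genes was not counted.

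**Figure D3:**
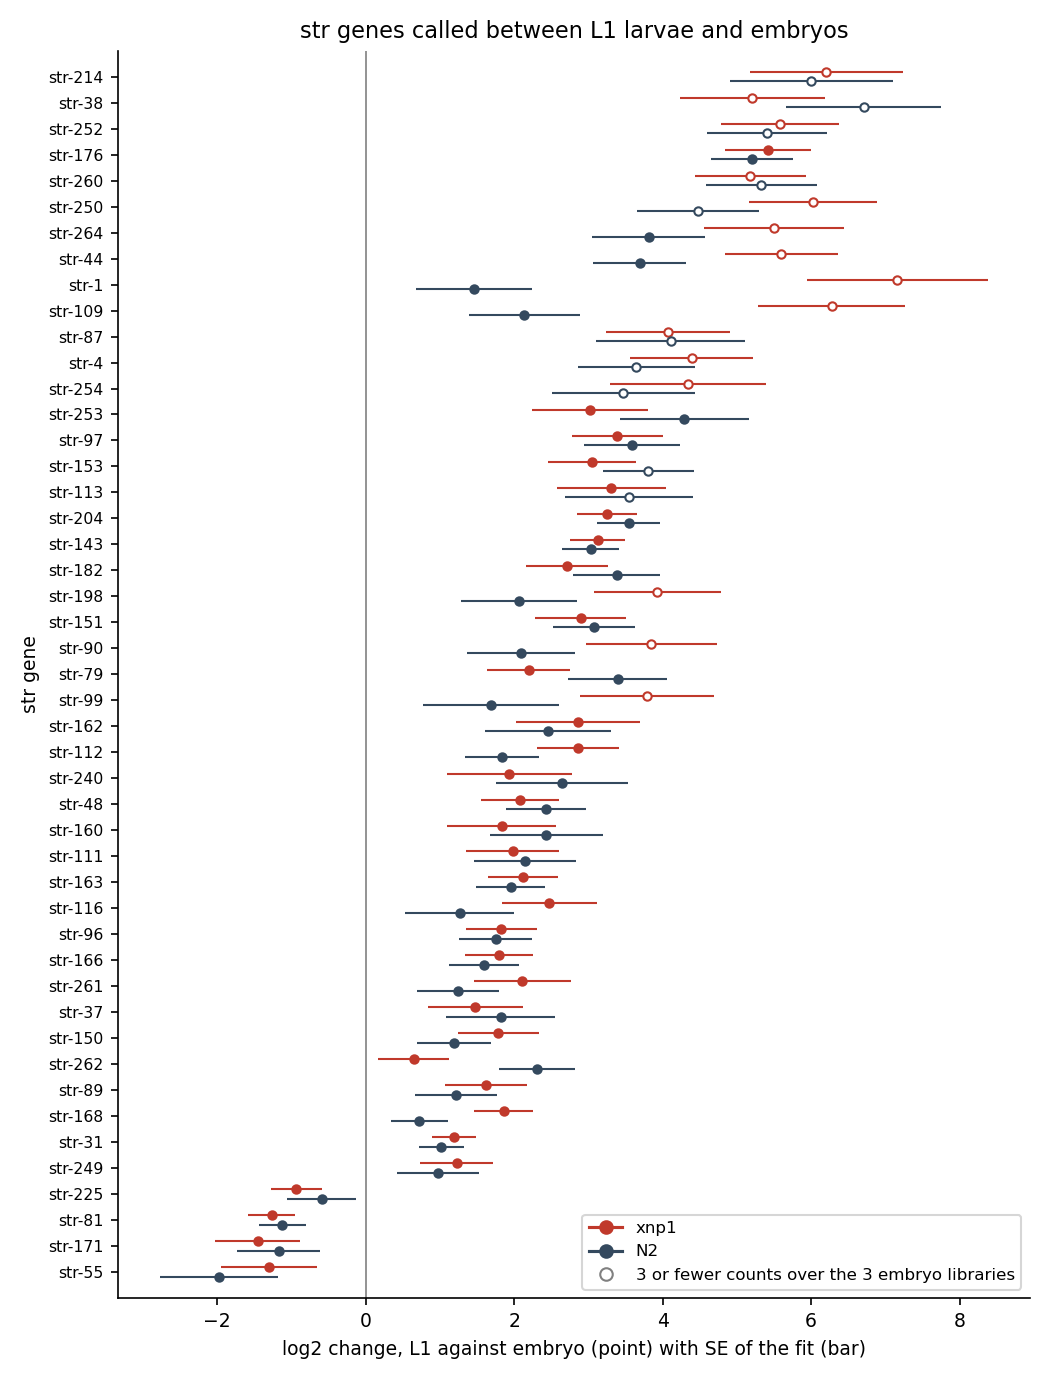
Points show the log2 change from embryo to L1 of the 47 str genes that passed the threshold in xnp1 animals or in N2, with its SE. Open points mark genes with 3 or fewer fragments over the 3 embryo libraries, whose size is not a bound. All but str-81, str-55, str-171 and str-225 lie above 0 in both genotypes.

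Few str genes were lower in L1 larvae. str-81 (chromosome V, 19225521 to 19251083) had 27, 34 and 35 fragments in xnp1 L1 larvae against 69, 79 and 75 in xnp1 embryos, and 17, 43 and 46 in N2 L1 larvae against 99, 52 and 59 in N2 embryos. The libraries of the 2 stages did not overlap in either genotype. The log2 change was -1.26 in xnp1 animals (SE 0.32, edgeR adjusted p = 0.0048) and -1.12 in N2 (SE 0.32, edgeR adjusted p = 0.0099). str-55 fell in N2 alone by the threshold (log2 -1.98, SE 0.80, edgeR adjusted p = 0.047), and str-171 (log2 -1.46, edgeR adjusted p = 0.039) and str-225 (log2 -0.93, edgeR adjusted p = 0.032) in xnp1 animals alone. These 3 calls are weak, since str-55 lost its call in 8 of 12 alternatives (edgeR adjusted p from 0.050 to 0.19), among them library totals, the replicate block and leaving out N2 L1 replicate 1, 2 or 3 or N2 embryo replicate 2 or 3. str-171 lost it in 6 of 14 (edgeR adjusted p from 0.051 to 0.21; without xnp1 embryo replicate 1 or xnp1 L1 replicate 1 or 2, for example) and str-225 in 5 of 14 (edgeR adjusted p from 0.072 to 0.099; without xnp1 embryo replicate 3 or xnp1 L1 replicate 1 or 3, for example). The leading embryonic genes str-173 and str-148 did not pass, at log2 -0.57 and -0.60 in xnp1 animals and -0.78 and -0.43 in N2.

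Other gene lists of the sensory neuron also held genes that changed between L1 larvae and embryos. Of all genes, 35.5% were higher and 27.6% lower in xnp1 animals, and 34.3% and 25.2% in N2. Of 31 genes for receptor trafficking and transduction, 16 were higher and 4 lower in L1 larvae in xnp1 animals (median log2 change 0.88), and 18 were higher and 3 lower in N2 (median 0.79). The G protein alpha subunits gpa-10 (2.57 in xnp1 animals, 2.46 in N2), gpa-3 (2.06 and 1.61) and gpa-11 (1.84 and 1.52) were among those that rose. Of 32 genes for cilia and transport within them, 1 was higher and 4 lower in each genotype (median -0.03 in xnp1 animals and -0.09 in N2). The 1 higher was the kinesin gene osm-3, at 0.92 in xnp1 animals and 0.88 in N2. Among the lower were dyf-7 (-0.90 and -0.99) and dyf-5 (-0.71 and -0.58). Of 22 regulators of neuron identity, 2 were higher and 8 lower in xnp1 animals (median -0.30) and 1 was higher and 9 lower in N2 (median -0.36). mef-2 was higher at 1.13 and 1.03, while sox-2 (-0.71 and -0.78), fkh-2 (-1.45 and -1.47) and nsy-7 (-0.75 and -0.70) were among the lower. Of 20 pan-neuronal genes, 12 were higher and 2 lower in xnp1 animals (median 0.64) and 11 were higher and 3 lower in N2 (median 0.57). Lists of other tissues also moved, with 9 muscle genes higher and none lower in N2, and their part in the str levels was not tested.

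The other chemoreceptor families rose as well. Among 388 tested genes of the other chemoreceptor families, 66.5% were higher and 3.9% lower in L1 larvae in xnp1 animals, against 61.5% and 4.6% of the str genes. In N2 the shares were 63.7% and 3.4% in the other families and 53.8% and 3.1% in the str genes. odr-10 was higher in L1 larvae in both genotypes.

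In xnp1 against N2 animals, 1 str gene changed at each early stage, and it was the same gene, str-225. In embryos 1 of 65 tested genes was higher and none lower, where 0.43% of all genes were higher and 0.684% lower, and in L1 larvae 1 of 65 was higher and none lower, where 0.362% of all genes were higher and 0.119% lower. The median log2 change of the 65 genes was 0.12 in embryos and 0.11 in L1 larvae. None of the 388 tested genes of the other chemoreceptor families passed at either stage.

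str-225 (chromosome V, 3507822 to 3509251, plus strand) had 52, 55 and 68 fragments in xnp1 embryos against 6, 9 and 9 in N2 embryos. The groups lay far apart, with the lowest xnp1 library at 1.4 CPM and the highest N2 library at 0.313 CPM. The means were 1.54 ± 0.185 CPM in xnp1 embryos and 0.248 ± 0.0892 in N2 embryos (SD, n = 3 each), a log2 change of 2.65 (SE 0.39, edgeR adjusted p = 0.0054). The call held under every alternative run for it, with values from 2.37 to 2.87 and adjusted p up to 0.045.

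In L1 larvae str-225 had 25, 40 and 29 fragments in xnp1 animals against 3, 7 and 8 in N2, and again the groups did not overlap. The means were 0.807 ± 0.236 CPM in xnp1 L1 larvae and 0.158 ± 0.0600 in N2 L1 larvae, a log2 change of 2.31 (SE 0.41, edgeR adjusted p = 0.027). This call depended on the fit: with only the L1 libraries it was 2.30 (edgeR adjusted p = 0.22), with these libraries and the replicate number as a block it was 2.29 (edgeR adjusted p = 0.0058), and leaving out single libraries (any of the 3 N2 libraries, or xnp1 replicate 2 or 3) gave adjusted p from 0.061 to 0.16. At L4 too few reads were present for a test, with 12, 2 and 14 in xnp-1;gsox-1 larvae, 4, 1 and 7 in xnp-1 larvae, 4, 4 and 2 in gsox-1 larvae and 0, 0 and 4 in N2 larvae.

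**Figure D4:**
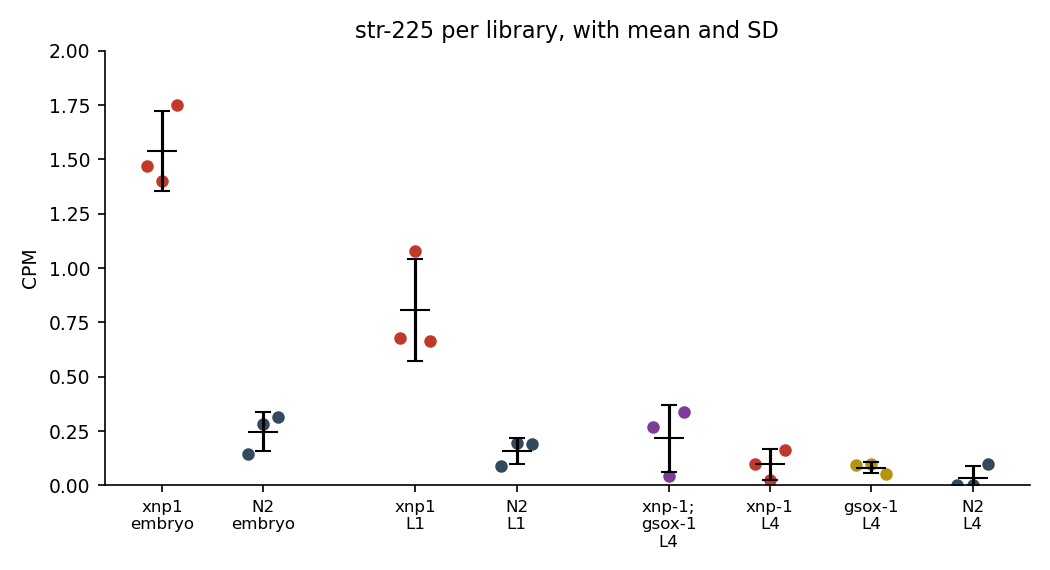
Points show str-225 in CPM in each of the 24 libraries, with the mean and SD of each group (n = 3). All xnp1 libraries lie above all N2 libraries in embryos and in L1 larvae, and the L4 groups lie lower and overlap.

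The neighbourhood of str-225 holds 7 other genes within 10 kb, none overlapping it. Of the 3 that could be tested, ugt-64, a gene for a UDP-glucuronosyltransferase on the opposite strand (3503080 to 3506352, 1470 bases away), was also higher in xnp1 animals, by log2 1.16 in embryos (edgeR adjusted p = 0.017) and 1.16 in L1 larvae (edgeR adjusted p = 0.027). The str neighbours str-226, str-227 and str-228 had too few counts for a test. Beside these results, the intestine list summed to 936 to 1246 CPM in xnp1 embryos against 1652 to 2076 in N2 embryos, and the muscle list to 6086 to 8717 against 10011 to 11327, with no gene of either list past the threshold. The pan-neuronal list summed to 2142 to 2599 CPM in xnp1 embryos against 2591 to 2726 in N2 embryos. The part of these differences in the level of str-225 was not tested.

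No other str gene passed in either early stage. Over all 17687 genes, 2095 had an unadjusted edgeR p under 0.05 in embryos and 1183 in L1 larvae. Among the 65 str genes, str-225 and 6 others did in embryos, and str-225 and 2 others in L1 larvae. They included str-16 in embryos, with 16, 12 and 12 fragments in xnp1 animals against 3, 3 and 4 in N2 (log2 1.79, SE 0.65, edgeR adjusted p = 0.26), whose groups did not overlap. Replicate numbers marked related samples in L1, and a fit with the replicate number as a block over the L1 libraries called str-225, str-109 (log2 1.11, edgeR adjusted p = 0.046) and str-176 (-0.78, edgeR adjusted p = 0.0046), of which str-109 and str-176 did not pass without the block. The last is lower in xnp1 L1 larvae within each replicate number, at 564 against 825, 298 against 438 and 236 against 475 fragments. The xnp1 effect was also tested for a difference between L1 larvae and embryos. No str gene passed by edgeR (0.0% of all genes did) or by DESeq2. By edgeR 4 of the 65 had an unadjusted p under 0.05, as did 454 of all 17687 genes.

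At L4, 3 of the 21 tested str genes were lower in xnp-1 larvae than in N2 larvae and none was higher (edgeR, adjusted over 17492 genes), where 25.3% of all genes were lower and 23.3% higher. The 3 were str-31, str-138 and str-249, and the share lies below that of all genes. The median log2 change of the 21 was -0.55, against -0.16 over all genes. Among the other chemoreceptor families, 4.3% of the tested genes were higher and 13% lower.

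str-31 (chromosome V, 7506869 to 7508666, minus strand) had 272, 122 and 98 reads in xnp-1;gsox-1 larvae, 26, 20 and 10 in xnp-1 larvae, 124, 168 and 84 in gsox-1 larvae and 118, 58 and 92 in N2 larvae. The xnp-1 libraries lay below all 9 others. In CPM the means were 3.71 ± 2.07, 0.457 ± 0.206, 3.06 ± 0.954 and 2.20 ± 0.764 in that order (SD, n = 3 each). The log2 change in xnp-1 against N2 larvae was -2.27 (SE 0.50, edgeR adjusted p = 0.0029). In embryos and L1 larvae the same gene did not pass the test, with 56, 58 and 79 fragments in xnp1 embryos against 53, 71 and 29 in N2 embryos and 131, 140 and 187 in xnp1 L1 larvae against 98, 94 and 155 in N2 L1 larvae.

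str-138 (chromosome V, 8058659 to 8060317) stood at 0.649, 1.33 and 1.16 CPM in xnp-1;gsox-1 larvae, 0.198, 0.172 and 0.282 in xnp-1 larvae, 1.43, 0.413 and 3.10 in gsox-1 larvae and 0.897, 2.46 and 1.86 in N2 larvae. Its log2 change in xnp-1 against N2 larvae was -2.98 (SE 0.69, edgeR adjusted p = 0.0039). str-249 (chromosome IV, 7185283 to 7186856) had 14, 18 and 23 reads in xnp-1;gsox-1 larvae, 2, 6 and 4 in xnp-1 larvae, 37, 11 and 54 in gsox-1 larvae and 12, 50 and 45 in N2 larvae. Its log2 change was -3.13 (SE 0.76, edgeR adjusted p = 0.0053). For both genes every xnp-1 library lay below every library of the other groups, and the gsox-1 libraries spread widely.

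The leading gene, str-176 (chromosome IV, 8460999 to 8463816), did not pass this test. It had 760, 322 and 585 reads in xnp-1;gsox-1 larvae, 665, 551 and 730 in xnp-1 larvae, 372, 351 and 78 in gsox-1 larvae and 190, 147 and 410 in N2 larvae. The xnp-1 and N2 libraries did not overlap, and the log2 change was 1.36 (SE 0.53, edgeR adjusted p = 0.051). Replicate numbers marked related samples here too, and with the replicate block over these groups it was 1.53 (edgeR adjusted p = 0.0023), with DESeq2 1.45 (adjusted p = 0.012), and without N2 replicate 3 1.92 (edgeR adjusted p = 0.019). str-176 alone held 53.1 to 58.5% of the str CPM of the xnp-1 libraries, and without it the summed str level was 16.6 ± 5.21 CPM in xnp-1;gsox-1 larvae, 12.9 ± 1.42 in xnp-1 larvae, 17.5 ± 2.19 in gsox-1 larvae and 17.8 ± 3.71 in N2 larvae.

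**Figure D5:**
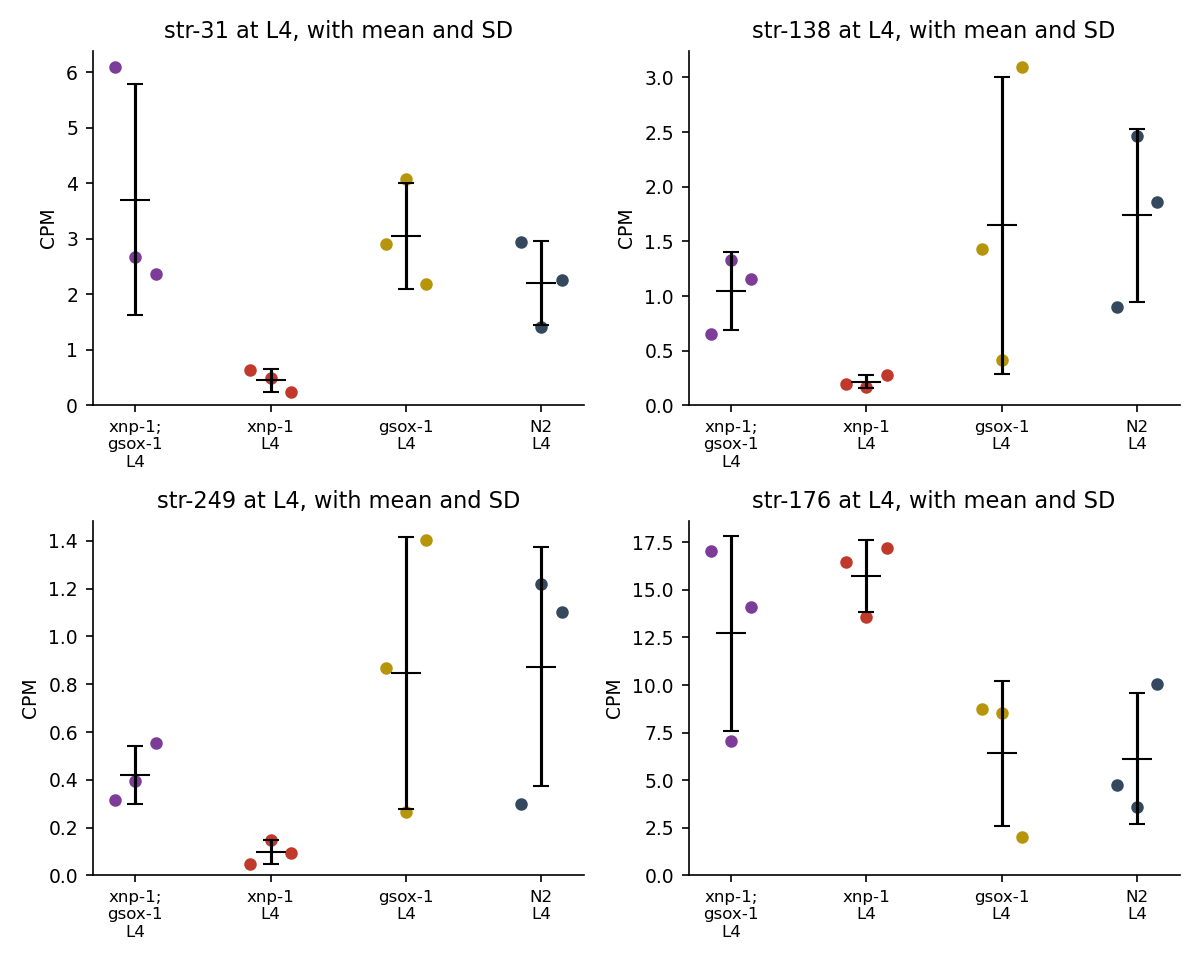
Points show str-31, str-138, str-249 and str-176 in CPM in each of the 12 L4 libraries, with the mean and SD of each group (n = 3). The xnp-1 libraries are the lowest for the first 3 genes and lie above all N2 libraries for str-176.

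str-16 showed the opposite pattern on counts too low for the filter; it is named here after its values were seen. It had 0, 0 and 0 reads in xnp-1;gsox-1 larvae, 37, 8 and 36 in xnp-1 larvae, 0, 1 and 0 in gsox-1 larvae and 0, 0 and 0 in N2 larvae. Set against 3 counts over the N2 group, it was at least 27.3-fold higher in xnp-1 than in N2 larvae. str-262 likewise had 6, 14 and 10 reads in xnp-1 larvae and none in N2 larvae, at least 10.2-fold higher, with 0, 0 and 4 in xnp-1;gsox-1 larvae and 0, 6 and 4 in gsox-1 larvae. L4 counts may hold both reads of a pair, in which case both bounds would be smaller. With no filter on low counts both genes passed the edgeR test.

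Genes of other lists also changed, in a comparison where 23.3% of all genes were higher and 25.3% lower. In xnp-1 against N2 larvae 19 of 20 germline genes were higher and none lower, and the germline list summed to 1291 to 2113 CPM in xnp-1;gsox-1 larvae, 7190 to 8348 in xnp-1 larvae, 1685 to 1846 in gsox-1 larvae and 1316 to 2003 in N2 larvae. Of 20 pan-neuronal genes 2 were higher and 7 lower (median -0.47), with rab-3, a synaptic vesicle GTPase gene, at -1.02. The summed pan-neuronal level was 720 to 1108 CPM in xnp-1;gsox-1 larvae, 849 to 985 in xnp-1 larvae, 1030 to 1061 in gsox-1 larvae and 761 to 1126 in N2 larvae, so the xnp-1 and N2 ranges overlapped. Of 32 cilia genes 2 were higher and 10 lower, with osm-3 at 2.15 and dyf-1 at -1.18, and of 31 trafficking and transduction genes 3 were higher and 4 lower, with osm-9 at -1.64 and gpa-4 at 1.49. Of 20 identity regulators 2 were lower and none higher. The part of the larger germline share in the lower str levels was not tested.

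In the larvae labelled xnp-1;gsox-1, the 3 genes that were lower in xnp-1 larvae were higher than in xnp-1 larvae, and no other str gene passed in edgeR's 4-group fit. DESeq2 also called str-146, which was lower (log2 -1.98, adjusted p = 0.019), as did edgeR with no filter on low counts (adjusted p = 0.0496). With no filter edgeR called 3 str genes higher and 5 lower. Besides str-146 the lower were str-16, str-172, str-173 and str-227 (edgeR adjusted p from 0.0018 to 0.047), which had no read in xnp-1;gsox-1 larvae. Of all genes 22.3% were higher in that comparison and 21.9% lower. The log2 change was 3.02 for str-31 (SE 0.51, edgeR adjusted p = 0.00057), 2.25 for str-138 (SE 0.68, edgeR adjusted p = 0.019) and 2.08 for str-249 (SE 0.77, edgeR adjusted p = 0.045). This comparison shares the xnp-1 libraries with the comparison of xnp-1 with N2, so the opposite signs are not independent. The call of str-138 was lost without xnp-1;gsox-1 replicate 2 (edgeR adjusted p = 0.055) or xnp-1 replicate 1 (0.061) or 2 (0.066). That of str-249 was lost without any one of the 6 libraries (edgeR adjusted p from 0.051 to 0.14) and with the replicate block over the groups compared (0.054), a fit that also called str-146 (log2 -2.16, edgeR adjusted p = 0.047).

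Against N2, no str gene passed in xnp-1;gsox-1 larvae (1.04% of all genes did) or in gsox-1 larvae (0.0229%), and none passed in xnp-1;gsox-1 against gsox-1 larvae (0.652%). DESeq2 also called none in these 3 comparisons, and only str-146 in xnp-1;gsox-1 against N2 larvae had an unadjusted p under 0.05 by edgeR. Over all 17492 genes, 2276 had one in that comparison, 858 in gsox-1 against N2 larvae and 2328 in xnp-1;gsox-1 against gsox-1 larvae. For str-31 the log2 change was 0.75 in xnp-1;gsox-1 against N2 larvae (edgeR adjusted p = 0.56) and 0.47 in gsox-1 against N2 larvae (edgeR adjusted p = 0.88). With the replicate block over the groups compared, str-176 passed in xnp-1;gsox-1 against N2 larvae at log2 1.12 (edgeR adjusted p = 0.023).

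The interaction asks whether the log2 change of xnp-1 differed between larvae with and without the gsox-1 label. Of the 21 str genes only str-31 passed, at 2.54 (SE 0.67, edgeR adjusted p = 0.013), where 17.2% of all genes were higher and 16.1% lower. It passed in each alternative and with each of the 12 libraries left out, with adjusted p up to 0.036. The values for str-138 (2.33, edgeR adjusted p = 0.068) and str-249 (2.13, edgeR adjusted p = 0.12) missed the threshold, and DESeq2 called str-138 (2.27, adjusted p = 0.041).

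Genes near the L4 str genes were examined within 10 kb, and none overlapped a str gene named here. Around str-138, 3 of 5 tested neighbours were lower in xnp-1 than in N2 larvae, including ZC513.2 at 990 bases (log2 -3.42). Around str-249, 2 of 8 tested neighbours passed: C42D4.13 at 333 bases was lower (log2 -2.67) and srlf-7 at 2431 bases was higher (0.52). Neither tested neighbour of str-31 passed, with the nuclear hormone receptor genes nhr-172 at -0.21 and nhr-171 at 0.51. Around str-176, 2 of 4 tested neighbours passed: ant-1.4 at 691 bases was lower (log2 -2.83) and syx-4 at 2066 bases was higher (1.27). str-176 itself did not pass. Of all genes 48.5% passed in this comparison.

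Among the str pseudogene loci L1 larvae again had the most detected. Of the 33, 9 were detected in embryos, 21 in L1 larvae and 7 at L4. Of the 7 tested in embryos and L1 larvae, str-183 was higher in L1 larvae by log2 2.45 in xnp1 animals (edgeR adjusted p = 0.0030) and 2.38 in N2 (edgeR adjusted p = 0.0043), and str-122 was lower by log2 -1.48 (edgeR adjusted p = 0.0078) and -1.98 (edgeR adjusted p = 0.0030) in the same order. str-224 was lower in L1 larvae in N2 (log2 -0.90, edgeR adjusted p = 0.043), with 17, 24 and 20 fragments in N2 L1 larvae against 40, 33 and 31 in N2 embryos, and did not pass in xnp1 animals (log2 0.08, edgeR adjusted p = 0.84). At L4 str-259 had 20, 14 and 12 reads in xnp-1;gsox-1 larvae and 0, 4 and 4 in xnp-1 larvae, a log2 change of 2.38 (edgeR adjusted p = 0.047). Reads that match near-identical copies can be lost or split in such a family, so levels of close paralogues and pseudogenes are uncertain.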

How the data were processed

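Poly(A) RNA of 24 libraries was analysed. The deposited tables give unnormalized counts for genes of the WS280 canonical set, made per the file headers with featureCounts 2.0.1 (embryos and L1 larvae, counting fragments, reverse-stranded, minimum mapping quality 10, minimum overlap 60) and featureCounts 2.0.6 (L4, reverse-stranded, minimum mapping quality 10). The L4 command gives paired-end mode without the option that counts pairs, so a pair may add 2 reads. Of all L4 counts from 1 to 20, 70.8% were even, against 43.06% in the other table. For the str genes alone the shares were 81.72% and 42.7%. Per the submitters' processing notes the reads passed FastQC, Trim Galore, STAR and SAMtools, with no versions. A further 12 count columns, of a table named for small RNAs, were not used.

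Symbols came from a WormBase name table, and 190 of 193 str genes had the same coordinates in RefSeq (WBcel235). Tests on the counts used edgeR 4.0.16 under R 4.3.3 (limma 3.58.1; filterByExpr by group, TMM, 4 groups per table, robust quasi-likelihood fit, two-sided), with Benjamini-Hochberg adjustment over all genes of a table and a threshold of 0.05. The filter kept 65 str genes in the embryo and L1 table and 21 at L4. CPM are TMM-scaled, with the SD over 3 libraries. SE was the log2 change divided by the root of F. The scripts were tested on simulated data. Intervals and bounds reflect counting error alone, because the reads carry no molecular identifiers, and p-values rest on the spread between labelled biological replicates.

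Alternatives were DESeq2 1.42.0, its size factors, library totals, no or a stricter filter (10 counts), a replicate block, only the groups compared, and each library left out. Same-numbered samples deviated together (every r over 0.1) in xnp1 and N2 L1 larvae (r from 0.505 to 0.785) and, at L4, in xnp-1;gsox-1 and xnp-1 larvae (0.136 to 0.271), xnp-1;gsox-1 and N2 larvae (0.319 to 0.548) and xnp-1 and N2 larvae (0.151 to 0.236), but not in the other pairs of groups. Named were the str genes past the threshold (up to 12 per direction by p), the 10 highest per stage, str-1, str-2, str-3, and up to 4 genes of each other list. Members and lists were chosen with earlier results of these data known. Genes named outside the rule (str-16, str-262, str-68, str-244, str-247, the neighbours, odr-10 and the uncalled genes) were chosen after their values were seen.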

Additional observations from a re-analysis of the deposited data

Results flagged for a closer look

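The interaction of xnp-1 and gsox-1 at L4 for str-31 was 2.54 on the log2 scale (SE 0.67, edgeR adjusted p = 0.013), so the effect of xnp-1 differed with the gsox-1 label by a direct test. In xnp-1;gsox-1 larvae the gene had 272, 122 and 98 reads and in gsox-1 larvae 124, 168 and 84, while in xnp-1 larvae it had 26, 20 and 10 and in N2 larvae 118, 58 and 92. gsox-1 RNA averaged 70.5 ± 24.7 CPM in xnp-1;gsox-1 larvae, 162.6 ± 14.9 in xnp-1 larvae, 78.5 ± 3.55 in gsox-1 larvae and 56.9 ± 12.7 in N2 larvae (SD, n = 3 each).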

How the results depend on the processing

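The number of str genes past the threshold moved by over 1.5 times in these cases. For xnp1 against N2 in L1 it was 0 with only the L1 libraries and 3 with the replicate block over them, against 1. For L1 against embryo in N2 it was 57 with no filter and 23 with only the N2 libraries, against 37. For xnp-1 against N2 at L4 it was 5 with no filter and 5 with only those groups, against 3. For xnp-1;gsox-1 against N2 it was 1 with the block over those groups, and for xnp-1;gsox-1 against xnp-1 it was 8 with no filter (3 higher and 5 lower). For the interaction it was 2 with DESeq2 and 4 with no filter. Detected genes numbered 38, 86 and 25 in embryos, L1 and L4 larvae at 0.1 CPM, 32, 79 and 25 at 5 counts, and 151 in embryos and 165 at L4 with a count in any library. Leaving out 1 library gave 1 to 1 gene (xnp1 against N2, embryos), 0 to 1 (L1), 34 to 46 (L1 against embryo, N2), 43 to 49 (xnp1), 3 to 5 (xnp-1 against N2), 2 to 4 (xnp-1;gsox-1 against xnp-1), 1 to 3 (interaction) and 0 to 0 in the other 4 comparisons; detected genes ranged from 79 to 85, 142 to 147 and 59 to 68. No value changed sign among those past the threshold. Of 571 values of named genes, 527 kept their side of the threshold, 36 lost it and 8 gained it. Over all genes DESeq2 called more than edgeR: 181 higher and 412 lower against 76 and 121 (xnp1 embryos), 129 and 105 against 64 and 21 (xnp1 L1), 298 and 549 against 75 and 107 (xnp-1;gsox-1 against N2), 8 and 52 against 1 and 3 (gsox-1), 364 and 227 against 71 and 43 (xnp-1;gsox-1 against gsox-1), and 4 and 5 against 0 and 0 (stage difference). Scaling by library totals moved the split of L1 against embryo to 6479 higher and 3391 lower in N2, against 6063 and 4460, and to 7048 and 3196 in xnp1 animals, against 6271 and 4880, with 37 and 43 str genes higher. It raised the median of all genes in xnp1 animals to 0.30, against 0.11. With the replicate block, L1 against embryo, which the numbers do not pair, gave 25 str genes in N2 and 33 in xnp1 animals over the groups compared. Over all groups the block gave 40 in N2 and 45 in xnp1 animals. The block changed no other count of a comparison than those given here or in the text. Chosen after seeing the data, halved L4 counts gave 4 calls in xnp-1 against N2, str-176 among them, and at least 2 counts gave 55 genes at L4. Low counts limit the rest: a str gene with a count had a median of 3 to 4 counts per embryo library. The causes were not tested.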
